A study of Homo sapiens with 18 samples.

Results

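The first 12 h of Wnt3a in wild-type cells were read from 2 RNA-Seq libraries of the first WT series, 1 at 0 h and 1 at 12 h, out of 18 samples in the study. The members are all 10975 genes that the RPKM table of this series lists, and each was compared as log2 of RPKM plus 1 at 12 h over RPKM plus 1 at 0 h, where RPKM is the read density over a transcript's length and the library's mapped reads. The cells were H1 (WA01), an established human embryonic stem cell line, grown on Matrigel in E8 medium. The 12 h library came from cells given 1 nM Wnt3a, a purified WNT ligand, and the 0 h library from WT cells given the same volume of WNT storage buffer. That control is described as 48 h of buffer, so 12 h of Wnt3a and a different time in culture cannot be told apart. The same genes can be followed in 2 later libraries of the first series, at 24 and 48 h. For 497 of them the study also holds WT Rep. 2 and the clones dZF1 and dZF2, single-cell derived H1 lines in which CRISPR-Cas9 removed the zinc finger region of both SP5 alleles, sampled at matching hours. Each time in each series has a single library (n = 1), so every value here describes those libraries and carries no p-value.

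WNT ligands bind Frizzled and LRP receptors and halt the destruction of β-catenin, which then joins TCF and LEF factors on DNA and switches on target genes. Many targets are themselves brakes on the pathway. In the embryo, WNT and NODAL signals set up the primitive streak, the site where epiblast cells become mesoderm and endoderm, and human embryonic stem cells given WNT follow a similar path in culture. SP5, a zinc finger factor of the SP and KLF family, is a direct WNT target and the subject of the study.

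In these 2 libraries, a few mesendoderm and signalling genes went from a low level to above 30 RPKM by 12 h. The genes that mark and maintain the stem cell state stayed near their starting level. MIXL1, EOMES and SP5 were listed at 0 RPKM at 0 h and at 68.6, 34.8 and 49.8 RPKM at 12 h. NODAL stood at 4.3 RPKM and then at 77.1 RPKM, which is 3.88 on the log2 scale. POU5F1, the pluripotency factor OCT4, was at 294.6 RPKM before and 323.7 RPKM after Wnt3a.

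The promoters of these genes differed in the TCF/LEF words they hold. Windows of 250 bases before to 50 bases after the start site were taken from RefSeq (GRCh38.p14) and searched on both strands for 4 alternative words of the TCF/LEF site that share their opening letters. The words were CTTTGAA or CTTTGAT and, as further forms, the word CTTTGTA or the word CTTTGTT. The windows below are those of the genes with the largest rises, with T and WNT3 added as the mesoderm regulator and the WNT ligand of the response, and any such word on either strand is in capitals. Each runs 5′ to 3′ on the gene's strand.
SP5, chr2:170715087-170715386, plus strand: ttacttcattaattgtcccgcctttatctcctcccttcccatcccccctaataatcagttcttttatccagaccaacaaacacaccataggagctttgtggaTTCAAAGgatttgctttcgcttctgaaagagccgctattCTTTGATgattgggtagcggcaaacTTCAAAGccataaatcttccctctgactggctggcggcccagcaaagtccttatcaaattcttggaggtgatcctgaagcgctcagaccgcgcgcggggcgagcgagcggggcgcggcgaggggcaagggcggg
MIXL1, chr1:226223414-226223713, plus strand: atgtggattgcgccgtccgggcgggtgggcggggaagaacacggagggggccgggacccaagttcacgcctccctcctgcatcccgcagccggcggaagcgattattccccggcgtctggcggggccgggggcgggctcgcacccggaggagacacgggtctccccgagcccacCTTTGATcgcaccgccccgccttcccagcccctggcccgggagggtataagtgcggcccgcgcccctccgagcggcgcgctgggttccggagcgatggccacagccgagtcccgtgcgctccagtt
EOMES, chr3:27722274-27722573, minus strand: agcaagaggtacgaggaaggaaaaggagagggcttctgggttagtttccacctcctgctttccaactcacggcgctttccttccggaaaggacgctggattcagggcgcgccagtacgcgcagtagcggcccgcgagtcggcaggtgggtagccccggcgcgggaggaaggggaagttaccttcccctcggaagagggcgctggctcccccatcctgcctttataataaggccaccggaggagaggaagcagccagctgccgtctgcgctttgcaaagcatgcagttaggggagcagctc
NODAL, chr10:70441632-70441931, minus strand: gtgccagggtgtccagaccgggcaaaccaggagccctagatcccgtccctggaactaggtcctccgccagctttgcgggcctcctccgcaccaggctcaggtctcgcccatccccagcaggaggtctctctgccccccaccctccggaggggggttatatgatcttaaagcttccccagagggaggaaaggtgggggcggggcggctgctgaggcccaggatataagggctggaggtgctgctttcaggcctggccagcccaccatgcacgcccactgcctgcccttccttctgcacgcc
T, listed in RefSeq as TBXT, chr6:166167802-166168101, minus strand: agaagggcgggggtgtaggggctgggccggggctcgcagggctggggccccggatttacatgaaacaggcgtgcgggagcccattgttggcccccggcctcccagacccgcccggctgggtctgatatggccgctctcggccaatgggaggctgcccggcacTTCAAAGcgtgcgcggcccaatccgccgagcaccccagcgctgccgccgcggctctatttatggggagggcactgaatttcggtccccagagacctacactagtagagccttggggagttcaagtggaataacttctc
WNT3, chr17:46818643-46818942, minus strand: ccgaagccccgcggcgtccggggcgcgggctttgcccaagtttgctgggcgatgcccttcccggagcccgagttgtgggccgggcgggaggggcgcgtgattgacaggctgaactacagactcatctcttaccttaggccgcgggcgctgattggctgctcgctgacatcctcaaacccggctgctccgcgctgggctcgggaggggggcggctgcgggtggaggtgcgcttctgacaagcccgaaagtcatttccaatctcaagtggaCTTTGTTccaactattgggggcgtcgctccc

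The SP5 window holds 3 of the words, and those of MIXL1, T and WNT3 hold 1 each. The windows of EOMES and NODAL hold none, which says only that these letters are absent from this stretch of sequence. A further RefSeq window of T, from another start site, also holds none. Of the 88 genes at least 2-fold higher at 12 h that have a RefSeq window, 24 (27.3%) hold a word in any of their windows. The share was 10.9% (6 of 55) for genes at least 2-fold lower, 11.9% (1034 of 8721) for all listed genes with a window, and 16.4% (4472 of 27305) for all genes with a window. With only CTTTGAT and CTTTGAA, 12.5% of the higher genes held a word, beside 5.54% of all listed genes with a window. The GC-box letters GGGCGG, a form of the site that SP factors bind, were found in 72.7% (64 of 88) of the higher genes, in 72.7% (40 of 55) of the lower genes and in 78.9% (6885 of 8721) of all listed genes with a window. Of the other higher genes under the naming rule, GDF3 and FGF18 held a word, and DACT1 held it in 1 of 3 windows. GAD1, GLIPR1L1, C6orf52, GSC, APCDD1, WLS, CER1, GBX2, FST, FOXB1, GADD45B, GPR75-ASB3 and ZNF670-ZNF695 held none. AXIN2 and HAS2 are not shown.

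Of the 10975 genes, 134 were at least 2-fold higher at 12 h (1.22% of all listed genes) and 81 were at least 2-fold lower (0.738%). At 1.5-fold the counts were 442 higher (4.03%) and 413 lower (3.76%). The other 92.2% of genes lay within 1.5-fold. The counts past 2-fold rest on the pseudocount, with 205 higher and 148 lower for 0.1 RPKM in place of 1, and 34 and 8 for 5 RPKM. The median change was -0.01 and the median size of a change, in either direction, was 0.16 on the log2 scale. Genes at the 1st and 99th percentile stood at -0.90 and 1.06. RPKM summed to 392297 at 0 h and 391798 at 12 h over the listed genes. The higher genes had a median of 1.8 RPKM at 0 h and 6.95 RPKM at 12 h, and the lower genes a median of 5.7 and 1.8 RPKM, against a median of 14.7 RPKM at both times over all genes. The table lists no gene whose highest RPKM over the 4 libraries of the series is under 4.0, so a gene with low values at both 0 and 12 h is there because of a later time.

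**Figure D1:**
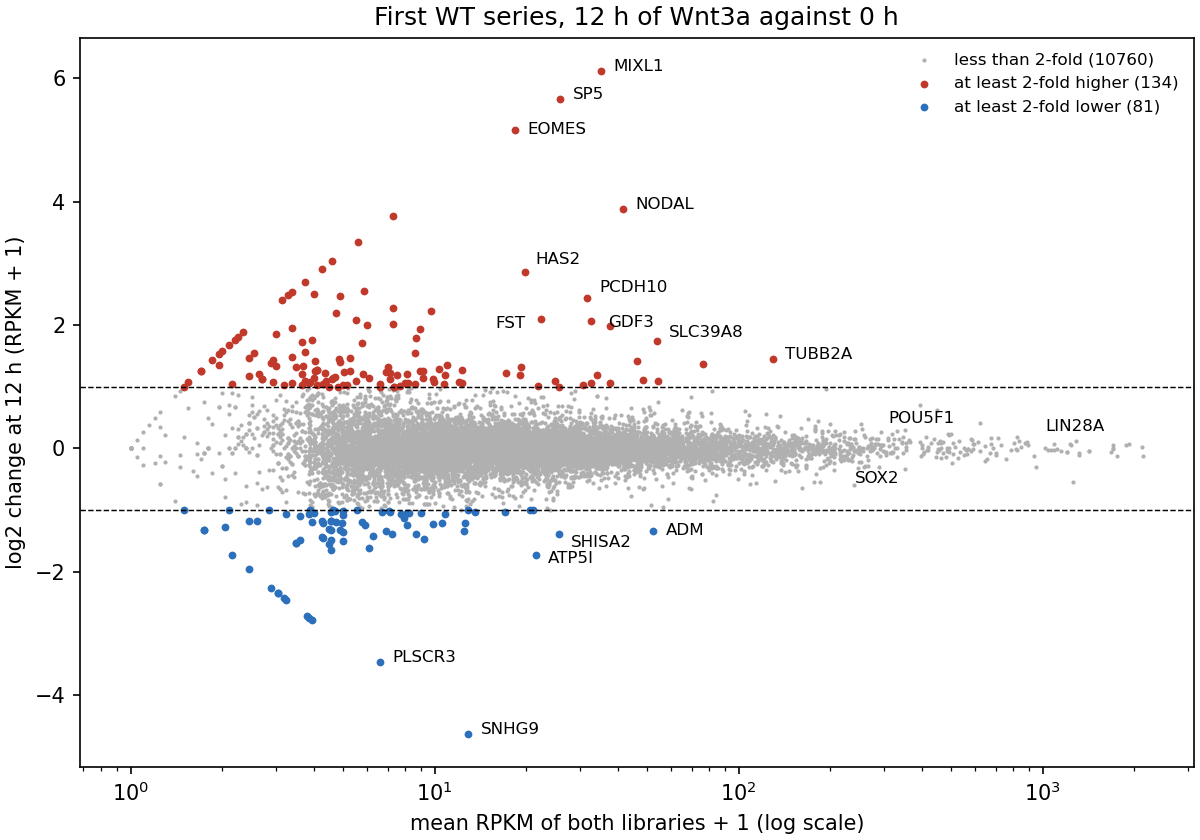
Change at 12 h (log2 scale, RPKM plus 1) against the mean RPKM of both libraries plus 1 (log scale) for 10975 genes, 1 point a gene, with dashed lines at 2-fold. Farthest from 0 among the 134 higher genes (red) are MIXL1, SP5, EOMES and NODAL, and among the 81 lower genes (blue) SNHG9 and PLSCR3. Genes on the diagonal edges at the left are listed at 0 in either library, where the pseudocount sets their place.

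The share of genes past 2-fold depended strongly on the level. Below a mean of 5 RPKM, 4.87% of 1518 genes were higher and 3.36% lower, whereas among the 681 genes at or above 100 RPKM the only gene past 2-fold was TUBB2A. TUBB2A encodes a β-tubulin, a subunit of microtubules, and stood at 68.4 RPKM at 0 h and 188.2 RPKM at 12 h, a log2 change of 1.45. From 20 to 50 RPKM, 0.604% of 2648 genes were higher and 0.113% lower, which is 16 genes against 3. Of the 134 higher genes, 47 reached 10 RPKM or more at 12 h and 25 reached 20 RPKM. Of the 81 lower genes, 20 began at 10 RPKM or more and 7 at 20 RPKM. In all, 22 of the 134 higher genes were listed at 0 at 0 h, MIXL1, SP5 and EOMES among them, and 14 of the 81 lower genes were listed at 0 at 12 h. Since read numbers are unknown, changes among low values are given with less weight in what follows.

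The labelled cell type was checked against its markers before gene groups were compared. All 8 markers of human embryonic stem cells were listed in both libraries, and together they summed to 2989 RPKM at 0 h and 2845 RPKM at 12 h, with changes between -0.34 and 0.14 on the log2 scale. NANOG, a core pluripotency factor, was the low member at 3.3 and 3.1 RPKM. NANOG has near-identical copies elsewhere in the genome between which reads may be split, so its level is uncertain. The neural markers PAX6 and SOX1 were not listed. Of 18 trophectoderm and amnion markers only TFAP2C was listed, at 2.0 and 4.5 RPKM. Of 12 fibroblast and mural markers, 5 were listed, with a summed level of 260.6 RPKM at 0 h and 201.7 RPKM at 12 h, most of it from THY1 at 195.7 and 124.8 RPKM, a surface protein that stem cells also carry. Of 12 liver and visceral endoderm markers, 3 were listed, at a sum of 0.9 and 0.6 RPKM. In bulk RNA a change in the number of cells of a type and a change in RNA per cell cannot be told apart.

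Primitive streak and mesendoderm regulators had the most members past 2-fold of the 19 lists. Of 32 genes on this list, 25 were listed, 7 were at least 2-fold higher and 0 were lower. The median change was 0.38 against -0.01 over all genes. That median was 0.15 over the members with a mean of at least 5 RPKM. Over all listed genes 1.22% were higher and 0.738% lower, and below a mean of 5 RPKM 4.87% were higher. Several members, T, EOMES, MIXL1 and GSC among them, were under 1 RPKM at 0 h. With a pseudocount of 1 RPKM such a gene cannot fall 2-fold, and it is listed only for a higher value at another time. The 0 lower is therefore partly fixed in advance. MIXL1, a homeobox factor of the streak, was at 0, 68.6, 271.1 and 76.4 RPKM at 0, 12, 24 and 48 h. EOMES, a T-box factor needed for endoderm and mesoderm, was at 0, 34.8, 109.3 and 139.8 RPKM. T, the T-box factor brachyury, was at 0.2, 5.8, 21.7 and 10.1 RPKM. Thus all of these rose within 12 h, but MIXL1 and T were lower at 48 h than at 24 h, and EOMES was not.

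Other streak genes were only beginning to move. GSC, a homeobox factor of the organizer, stood at 0.5, 7.3, 57.8 and 27.2 RPKM over the 4 times. CER1, a secreted inhibitor of NODAL, BMP and WNT ligands, stood at 1.8, 6.7, 466.7 and 634 RPKM, so its 12 h value was a small part of what followed. FOXA2, an endoderm factor, went from 0.9 to 3.0 RPKM at 12 h and was at 40.7 RPKM at 48 h. The endoderm factor SOX17 was listed at 0 in both libraries and reached 89.6 RPKM only at 48 h, and GATA6 was at 0 and 0.1 RPKM at 0 and 12 h and at 41.1 RPKM at 48 h. In contrast, GBX2, a homeobox factor of the posterior epiblast and hindbrain, was highest at 12 h, with 0.8, 5.1, 2.4 and 1.2 RPKM.

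**Figure D2:**
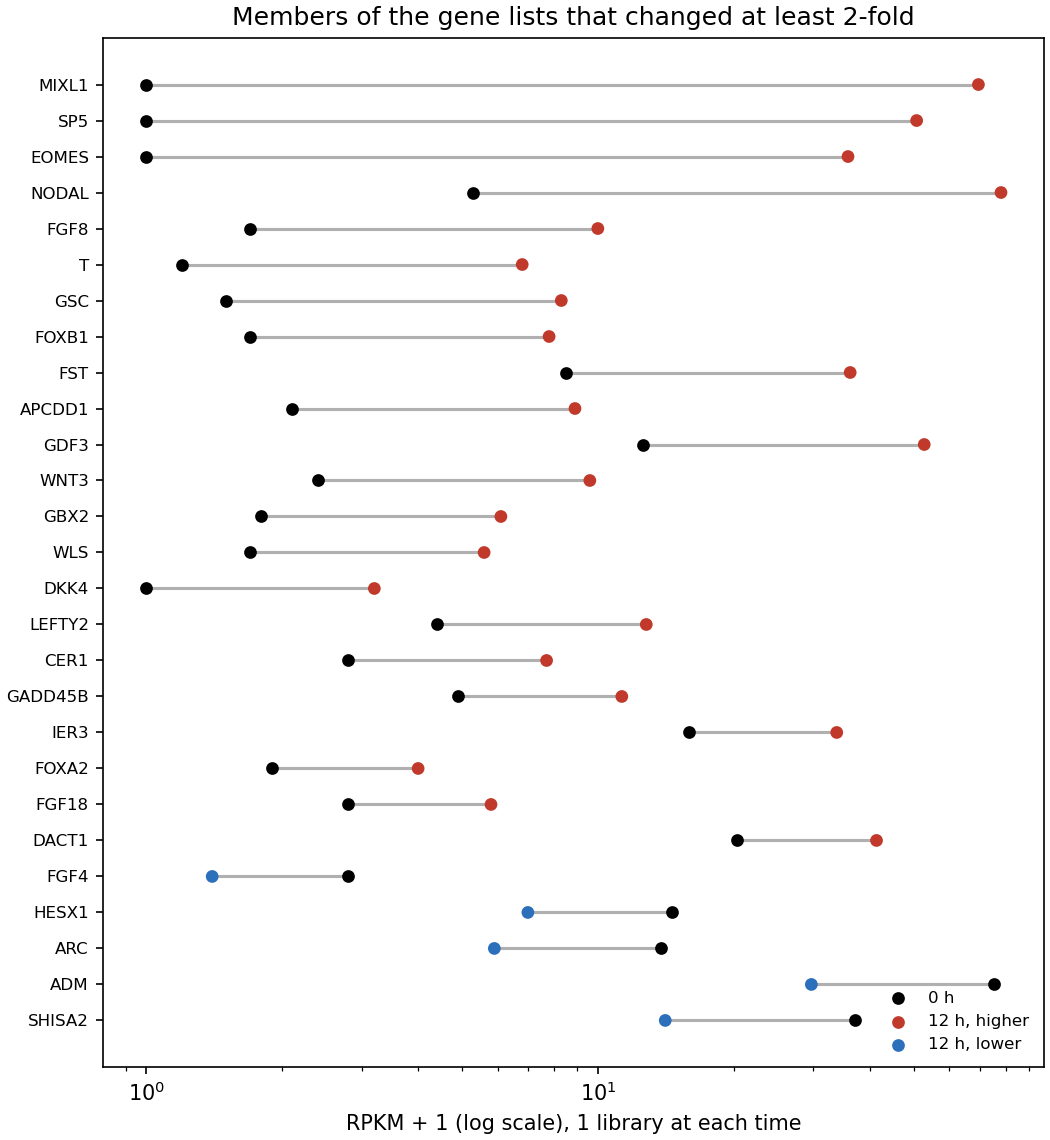
RPKM plus 1 (log scale) at 0 h (black) and 12 h (red if higher, blue if lower) for each member of the 19 gene lists that changed at least 2-fold, 1 library at each time. Most red points start below 10 RPKM, with MIXL1, SP5 and EOMES starting from a listed 0, and ADM and SHISA2 are the falls from the highest level.

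The NODAL pathway was the other group with many rises. NODAL, a TGFβ family ligand that works with WNT in streak formation, was at 4.3, 77.1, 159.2 and 56.9 RPKM over the 4 times. GDF3, a related ligand that acts through the same receptors, was at 11.6 RPKM at 0 h and 51.8 RPKM at 12 h, a log2 change of 2.07. Antagonists of TGFβ family ligands were higher as well. LEFTY2, a feedback inhibitor of NODAL, went from 3.4 to 11.8 RPKM (1.54), and its neighbour and close paralog LEFTY1 from 8.3 to 15.1 RPKM (0.79). Reads may be shared between LEFTY1 and LEFTY2, so the split between them is uncertain. FST, which encodes the activin and BMP antagonist follistatin, went from 7.5 to 35.2 RPKM, a log2 change of 2.09.

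Within the NODAL list, 5 of 17 listed members were at least 2-fold higher and 0 lower, beside 1.22% and 0.738% of all listed genes. The fifth was DACT1, which encodes a Dishevelled-binding protein and went from 19.3 to 40.4 RPKM (1.03). The remaining 12 moved by less. TDGF1, the NODAL co-receptor CRIPTO, was at 228.5 and 205.7 RPKM, and SKIL, a SMAD co-repressor and feedback gene, at 119.2 and 112.6 RPKM. The list's median change was 0.01.

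Among WNT target and feedback genes the response was uneven. Of 25 listed members, 4 were at least 2-fold higher and 1 was lower, beside 1.22% and 0.738% of all listed genes. Below a mean of 5 RPKM, where T, DKK4 and APCDD1 lay, 4.87% were higher. SP5, T and DKK4 were under 1 RPKM at 0 h, so they could not fall 2-fold and are listed for a higher value at another time. The list's median was 0.07. SP5 was at 0, 49.8, 90.5 and 135.7 RPKM over the 4 times, and T, given above, is also on this list. APCDD1, a membrane inhibitor of WNT signalling, was at 1.1 RPKM at 0 h and 7.9 RPKM at 12 h (2.08). DKK4, a secreted antagonist of LRP receptors, was listed at 0 and then at 2.2 RPKM, and DKK1, its relative, was at 0.6 and 1.1 RPKM before reaching 69.5 RPKM at 48 h.

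AXIN2, the feedback scaffold that serves as a general readout of β-catenin activity, did not reach 2-fold. It was at 15.5, 24.4, 23.8 and 22.0 RPKM, a log2 change of 0.62 at 12 h, and 12 h was its highest time. TCF7, a TCF family factor, went from 5.7 to 9.5 RPKM (0.65), and CCND1, cyclin D1, from 53.9 to 81.7 RPKM (0.59). LEF1 was not listed. Other members of the list were lower at 12 h. SHISA2, an inhibitor of FGF and WNT receptor maturation, was at 36.1, 13.1, 7.0 and 55.5 RPKM, a log2 change of -1.40 at 12 h. The secreted WNT antagonist SFRP1 was at 286.9 and 188.9 RPKM (-0.60), and the receptor FZD7 at 135.5 and 91.1 RPKM (-0.57), both short of 2-fold.

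Most receptors and transducers of the pathway stayed near their level. Of 28 listed receptors, ligands and transducers, 2 were at least 2-fold higher and 0 lower, beside 1.22% and 0.738% of all listed genes. Both began at a low level, and below a mean of 5 RPKM 4.87% of genes were higher. WLS, under 1 RPKM at 0 h, could not fall 2-fold and is listed for a higher value at another time. The list's median was 0.01. WNT3, the ligand that initiates the streak in the mouse and the only WNT ligand listed, was at 1.4, 8.6, 26.8 and 31.4 RPKM, a log2 change of 2.0 at 12 h. WLS, the carrier that WNT proteins need to leave the cell, was at 0.7, 4.6, 13.2 and 21.9 RPKM (1.72). CTNNB1, β-catenin itself, was at 184.9 and 195.4 RPKM. TCF7L1, a TCF factor that acts mainly as a repressor in stem cells, was at 27.4 and 18.2 RPKM (-0.56).

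**Figure D3:**
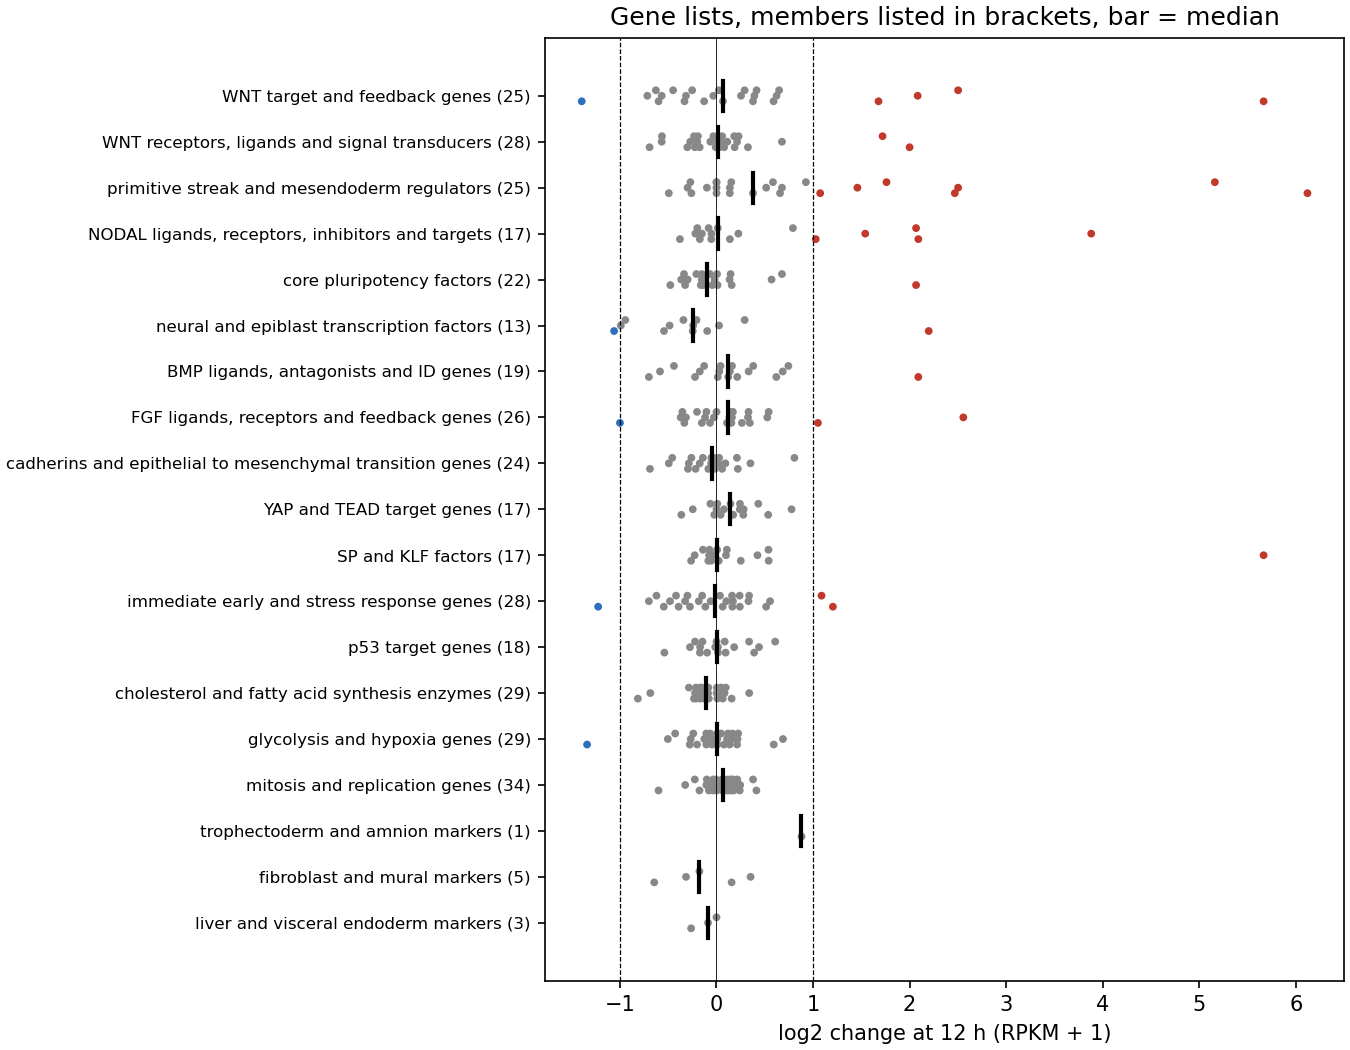
Change at 12 h (log2 scale, RPKM plus 1) of each listed member of 19 gene lists, with the number listed in brackets, the median as a black bar and dashed lines at 2-fold. A gene may be on several lists. Red points, at least 2-fold higher, gather in the mesendoderm (7 of 25), NODAL (5 of 17) and WNT target lists (4 of 25), while the mitosis (0 of 34) and cholesterol lists (0 of 29) hold none. Over all listed genes the share is 1.22%, and below a mean of 5 RPKM it is 4.87%.

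Pluripotency factors changed little. Of 22 listed, GDF3 was the only member past 2-fold in either direction, and the median was -0.10. SOX2 was at 238.3, 212.8, 153.4 and 105.5 RPKM over the 4 times, so its 12 h value (-0.16) was the start of a longer decline. LIN28A, an RNA-binding protein that blocks let-7 maturation, was at 1014 and 1018 RPKM. DNMT3B, the de novo DNA methyltransferase of the epiblast, was at 393.8 and 311.7 RPKM (-0.34), and PRDM14, a repressor of differentiation genes, at 31.6 and 22.4 RPKM (-0.48).

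Neural and epiblast transcription factors leaned lower, with a median of -0.25 over 13 listed members. HESX1, a homeobox repressor of the anterior epiblast and forebrain, was at 13.6 and 6.0 RPKM, a log2 change of -1.06. POU3F1, a POU factor of epiblast and neural progenitors, was just inside 2-fold at 30.8 and 15 RPKM (-0.99), and SOX3, a neural relative of SOX2, was at 14.2 and 6.9 RPKM (-0.94). FOXB1, a forkhead factor of the early neural tube, went the other way, from 0.7 to 6.8 RPKM (2.20).

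FGF and BMP genes were mixed. Of 26 listed members of the FGF list, 2 were at least 2-fold higher and 1 lower, beside 1.22% and 0.738% of all listed genes. All of these had a mean under 5 RPKM, where 4.87% of genes were higher and 3.36% lower. FGF22, an FGF ligand outside this list, went from 4.5 RPKM to a listed 0 (-2.46). FGF8, a ligand made by the streak, was at 0.7, 9.0, 20.2 and 14.2 RPKM, a log2 change of 2.56 at 12 h. FGF18, another ligand, went from 1.8 to 4.8 RPKM (1.05) and was back at 1.5 RPKM at 24 h, and FGF4, a stem cell ligand, from 1.8 to 0.4 RPKM (-1.0). Of 19 listed BMP genes, FST was the only member past 2-fold. ID2 and ID4, inhibitors of helix-loop-helix factors and BMP targets, were higher by 0.69 and 0.74 on the log2 scale, at 16.4 and 27.0 RPKM for ID2 and 6.7 and 11.9 RPKM for ID4.

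Epithelial, growth and stress genes were close to their 0 h level. None of the 24 listed cadherin and epithelial to mesenchymal transition genes passed 2-fold. CDH1, E-cadherin, was at 68.6 and 80.1 RPKM, and CDH2, N-cadherin, at 16.7, 19.5, 44.2 and 63.3 RPKM over the 4 times, so its higher values came after 12 h. No member passed 2-fold among 34 mitosis and replication genes, 29 cholesterol and fatty acid enzymes, 18 p53 targets and 17 YAP and TEAD targets, whose medians were 0.07, -0.10, 0.01 and 0.14. Among 17 listed SP and KLF factors SP5 alone passed, and SP1, the ubiquitous family member, was at 47.0 and 45.2 RPKM. Of 29 glycolysis and hypoxia genes, 1 passed. It was ADM, the hypoxia-induced peptide adrenomedullin, at 74.2, 28.7, 14.8 and 44.4 RPKM (-1.34 at 12 h).

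Of 28 immediate early and stress genes, 2 were at least 2-fold higher and 1 lower, beside 1.22% and 0.738% of all listed genes. The list's median was -0.01. GADD45B, a stress and TGFβ response gene, was at 3.9 and 10.3 RPKM (1.21), and IER3, an early response gene, at 14.9 and 32.8 RPKM (1.09). ARC, the activity-regulated cytoskeletal gene, went from 12.8 to 4.9 RPKM (-1.23). JUN, a subunit of AP-1, was at 15.9 and 9.4 RPKM (-0.70) and did not pass.

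Outside the lists, further genes reached at least 10 RPKM, and those described here were chosen after their values were seen, apart from HAS2 and GAD1. HAS2, a hyaluronan synthase, was at 3.8, 33.9, 54.0 and 309.1 RPKM, a log2 change of 2.86 at 12 h. PCDH10, a protocadherin, was at 8.9, 52.7, 144.8 and 151.8 RPKM (2.44). SLC39A8, a zinc and manganese importer, was at 23.7, 81.7, 93.6 and 93.2 RPKM (1.74), so it was near its later level by 12 h.

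GAL, the neuropeptide galanin, was at 41.5 and 109.3 RPKM (1.38), CNTNAP2, a neurexin family adhesion protein, at 24.1 and 66.2 RPKM (1.42), and CYP1B1, a cytochrome P450, at 1.5 and 11.1 RPKM (2.28). GAD1, which makes the transmitter GABA, was listed at 0 and then at 7.2 RPKM, still under 10. NKX1-2, a homeobox factor of the caudal epiblast, was highest at 12 h with 20.2, 43.3, 17.7 and 19.9 RPKM. NKX1-2 and FGF18 were below their 0 h level again at 24 h.

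The list of largest falls was led by SNHG9, a short noncoding RNA gene of 471 bases that was at 23.8 RPKM at 0 h and listed at 0 at 12, 24 and 48 h. PLSCR3, a phospholipid scramblase, was at 11.1, 0.1, 0 and 13.2 RPKM. LAMA4, a laminin chain, was at 5.9 RPKM and then listed at 0. ATP5I, a small subunit of ATP synthase, was at 32.0, 9.0, 4.5 and 23.2 RPKM (-1.72), and FGF22, TOMM20L, RPRML and C4orf48 were at 8.2 RPKM or less at 0 h before falling at least 2-fold.

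Short genes and overlapping entries made up more of the changed genes than of all genes, on both sides. Of 16 listed genes with a longest annotated transcript under 500 bases, 2 were at least 2-fold higher and 4 lower, whereas of 5110 genes of 4000 bases or more 0.763% were higher and 0.333% lower. Entries that join neighbouring loci under a shared name made up 0.647% of all entries (71), but 3.73% of the higher entries (5) and 4.94% of the lower entries (4). Some of these entries moved opposite to an overlapping entry while their sum changed little. GJA9-MYCBP went from 0 to 12.6 RPKM while MYCBP, a MYC-binding protein at the same locus, went from 26.5 to 12.7 RPKM, and both together were at 26.5 and 25.3 RPKM. C17orf61-PLSCR3 went from 5.2 to 14.8 RPKM while PLSCR3 went from 11.1 to 0.1 RPKM, with sums of 16.3 and 14.9 RPKM. Others did not, and RAB4B,RAB4B-EGLN2 (6.0 to 1.8 RPKM) and EGLN2 (75.4 to 63.4 RPKM) were both lower at 12 h. Such sums are approximate because the entries differ in length, and the values of these entries, and of pseudogenes such as CYCSP52 (0 and 9.2 RPKM), are uncertain.

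SP5 binding was deposited as peaks from ChIP-Seq at 24 h, and the early genes were set beside it. The headers of both deposited peak lists name the same ChIP library, from H9 cells by its name. The authors describe H1 cells for their SP5 ChIP, so the line behind the peaks is uncertain. Both lists differ in their control, so their 540 and 542 peaks are no replicates of each other. Of 122 higher genes that the hg19 annotation holds, 6 (4.92%) had a peak summit within 2000 bases of a start site when the Wnt3a-treated control was used. The share was 4.29% (3 of 70) for lower genes and 1.60% (170 of 10649) for all listed genes in the annotation. The 6 were MIXL1, SP5, WNT3, CYP1B1, GSTO1 and NRTN. The MIXL1 peak (hg19, chr1:226410325-226411482) had 95 tags, a fold of 24.4 over background and a summit 152 bases from the start site, and the SP5 peak (chr2:171570777-171572606) had 93 tags, a fold of 15.9 and a summit 241 bases away. Both had a false discovery rate of 0%. The WNT3 peak (chr17:44849351-44850376) had 38 tags and a false discovery rate of 41.5%, so it stands on less. Any annotated start site counted, and this summit lies 286 bases from one inside the gene (44839872-44910520, minus strand). The WNT3 promoter window above came from RefSeq and was not matched to that start site. Against the buffer-treated control 6 higher genes (4.92%) had such a peak as well, beside 1.3% of all listed genes in the annotation. MIXL1 and SP5 were again among them, and NODAL, GSC, WLS and DLEU7 had a peak only against this control. The false discovery rates were 46.0% for NODAL, 65.4% for GSC and 70.5% for WLS. No cut on this rate was applied to any of these shares.

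WT Rep. 2 gave the early response another look, in libraries that share nothing with the first series. The deposited table holds each gene as a fraction of its highest RPKM in WT Rep. 2, for 497 genes that come from the study's own selection of genes changing in the first series. It includes 68 of the 134 higher genes (50.7%) and 12 of the 81 lower genes (14.8%). Changes were set on a common scale, as log2 of the fraction plus 0.05 at 12 h over that at 0 h. On this scale 66 of the 497 genes (13.3%) were at least 2-fold higher and 11 (2.21%) at least 2-fold lower in the first series. In WT Rep. 2 it was 20 genes higher (4.02%) and 10 lower (2.01%). Because the first series chose these genes, its larger share is partly fixed by that choice.

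SP5, MIXL1, EOMES and NODAL, which led the first series, were at or under 0.09 of their highest RPKM at 12 h in WT Rep. 2. SP5 was at fractions of 0.02, 0.02, 0.09 and 1.00 at 0, 12, 24 and 48 h, where the first series stood at 0.37 of its highest RPKM at 12 h. MIXL1 was at 0, 0, 0.08 and 1.00, EOMES at 0, 0.03, 0.05 and 1.00, and NODAL at 0.04, 0.09, 0.32 and 1.00. All of these were highest at 48 h in WT Rep. 2, whereas MIXL1 and NODAL peaked at 24 h in the first series. GDF3 was at 0.15 at both 0 and 12 h, and APCDD1 at 0.22. A fraction says nothing of the RPKM reached, so these values bear on timing within each series and not on the size of the response.

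**Figure D4:**
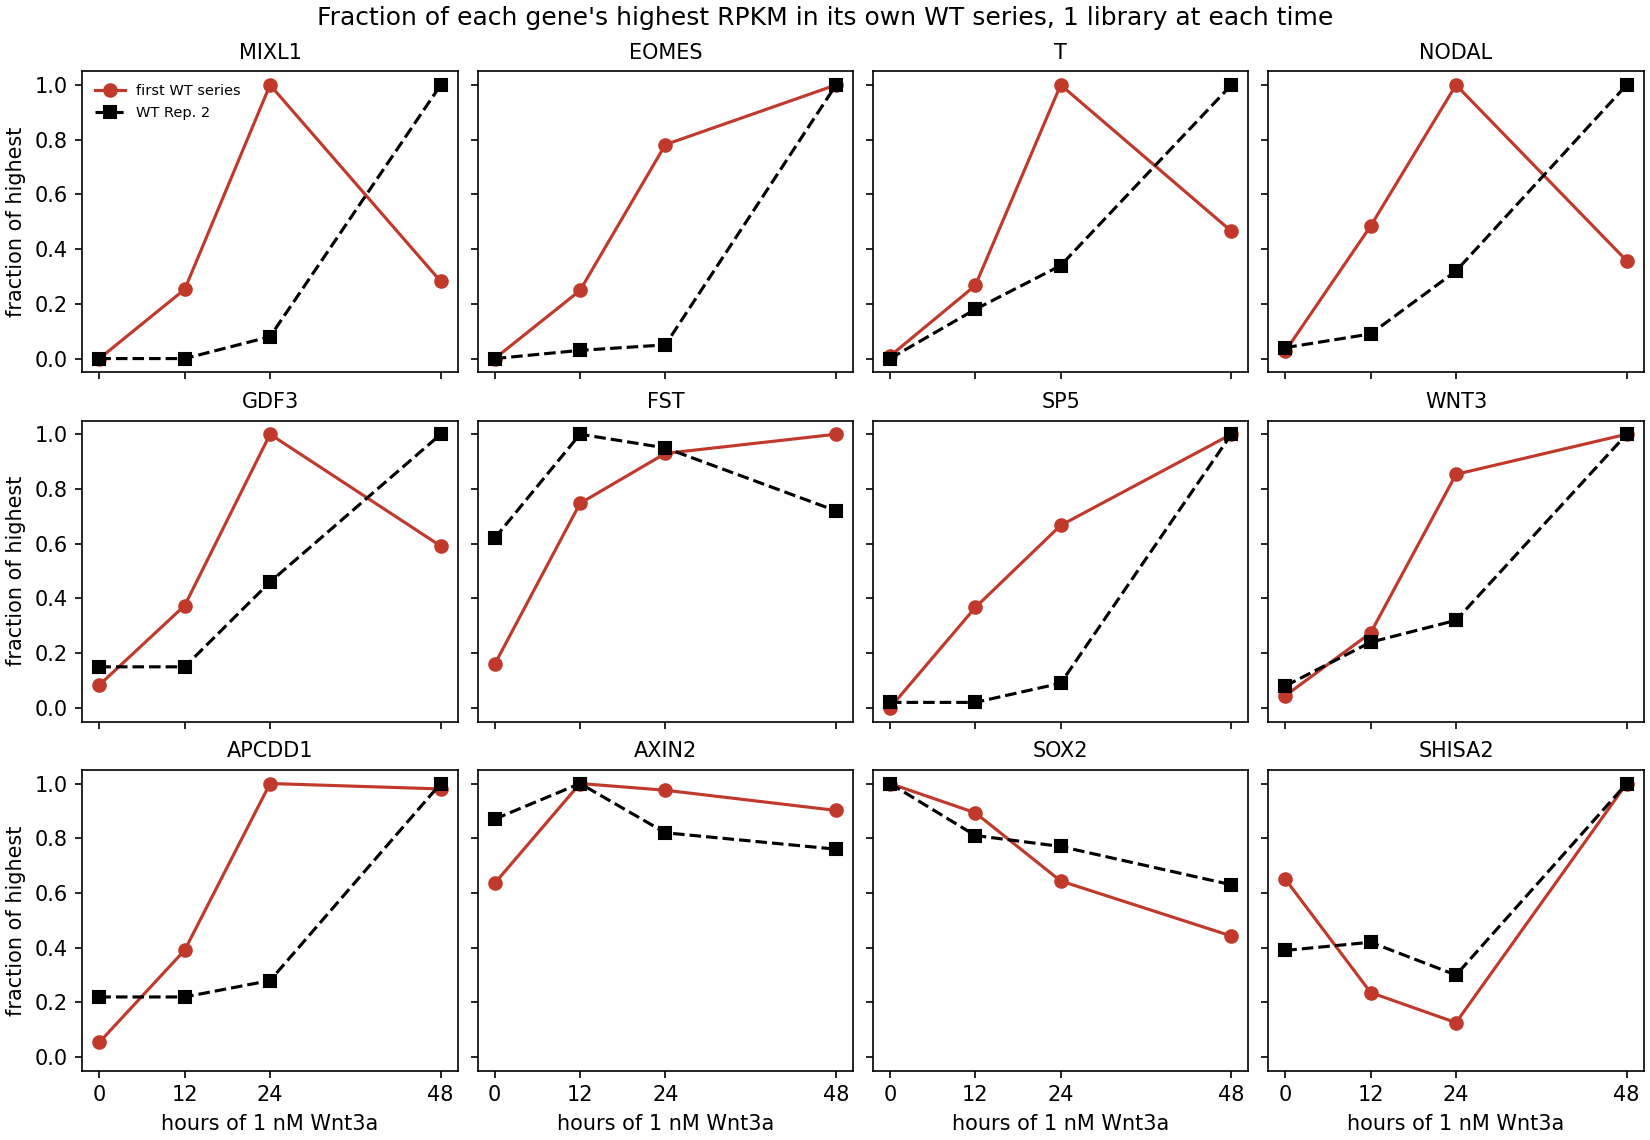
Fraction of each gene's highest RPKM in its own WT series at 0, 12, 24 and 48 h of 1 nM Wnt3a, for 12 genes, first series in red and WT Rep. 2 in black, 1 library at each time. SP5, MIXL1, EOMES and NODAL leave the baseline by 12 h in the first series and stay at or under 0.09 at 12 h in WT Rep. 2, while AXIN2 and FST rise by 12 h in both and SOX2 falls in both.

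Some genes were higher at 12 h in both WT series. T went from 0 to 0.18 in WT Rep. 2 and WNT3 from 0.08 to 0.24. AXIN2 went from 0.87 to 1.00, TCF7 from 0.52 to 1.00, CCND1 from 0.91 to 1.00 and FST from 0.62 to 1.00, each at its highest at 12 h. All of these were higher at 12 h in the first series too. SOX3 (1.00 to 0.55), POU3F1 (1.00 to 0.71) and SOX2 (1.00 to 0.81) were lower at 12 h in WT Rep. 2, as they were in the first series. Of the 5 neural and epiblast factors in the table, 5 were lower in WT Rep. 2, beside 36.4% of all 497 genes. HES1, a Notch target, was lower by the last decimal only, from 0.25 to 0.24, and FOXB1 was higher in the first series.

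Of the 68 higher genes in the table, 41 were higher in WT Rep. 2, 16 lower and 11 equal at 2 decimals. Of all 497 genes, 57.7% were higher and 36.4% lower, beside 60.3% and 23.5% of these 68. Their median change was 0.19 in WT Rep. 2, against 1.38 in the first series on the same scale and 0.07 in WT Rep. 2 over all 497 genes. The 7 that were at least 2-fold higher in both were T, WNT3, GLIPR1L1, RASGEF1B, DUSP10, DAB1 and C15orf2, named after their values were seen where they fall outside the lists. A further 3 of the 68 were at least 2-fold lower in WT Rep. 2. Over all 497 genes, 20 (4.02%) were at least 2-fold higher there and 10 (2.01%) at least 2-fold lower. Of the 12 lower genes, 8 were higher in WT Rep. 2 and 4 lower. ADM went from 0.53 to 0.77, ARC from 0.64 to 1.00 and SHISA2 from 0.39 to 0.42 there, each against the direction of the first series. Across the 497 genes the changes of both WT series had a Pearson correlation of 0.02 and a Spearman correlation of 0.15, given as a description because genes are not independent and low fractions carry large errors.

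**Figure D5:**
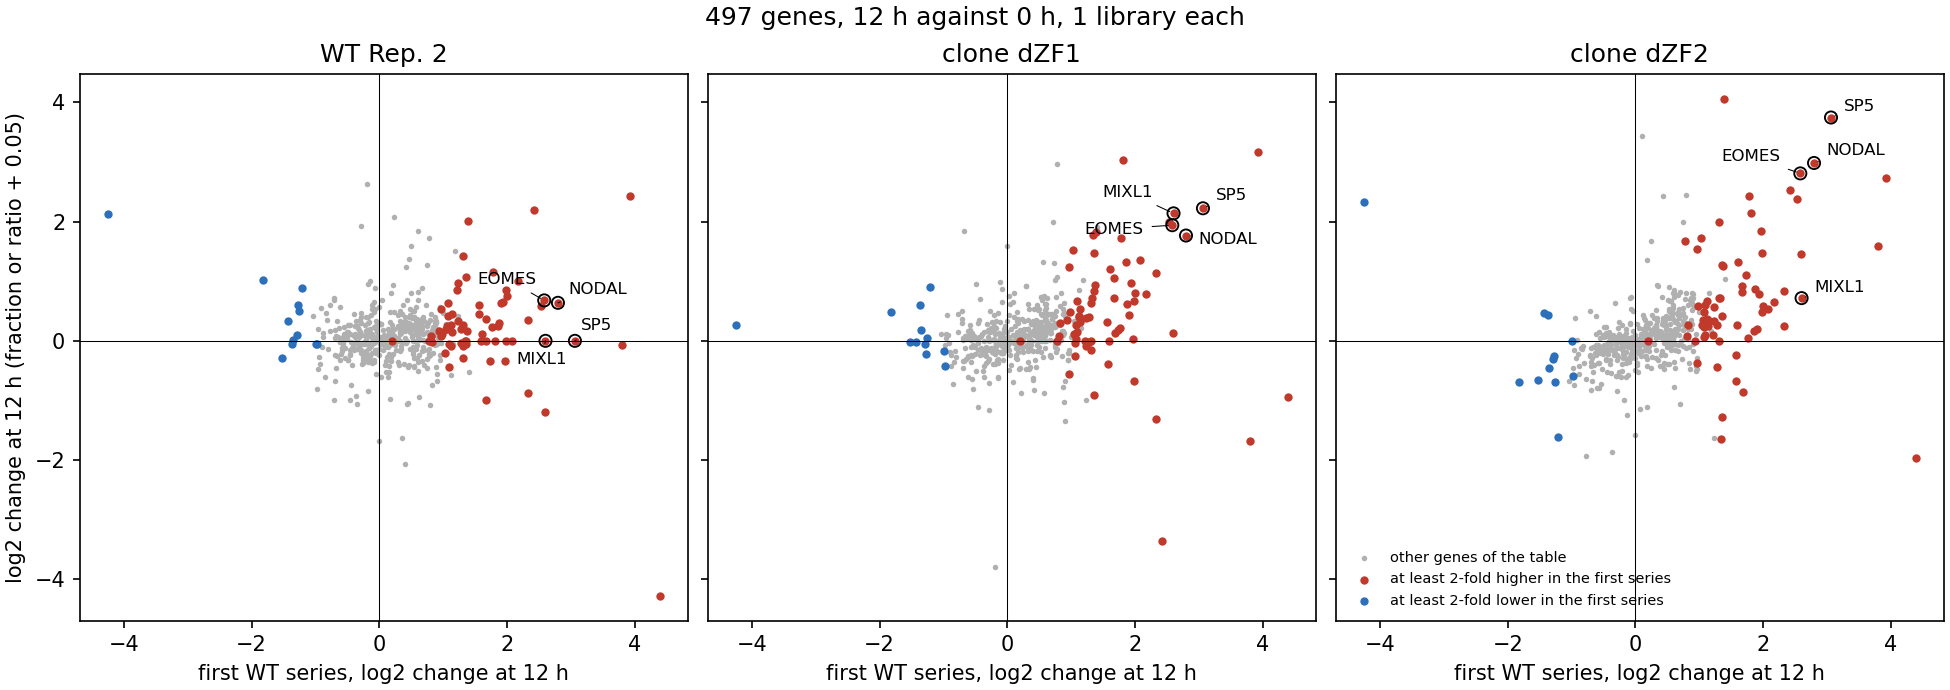
Change at 12 h in WT Rep. 2, dZF1 and dZF2 (log2 scale, fraction or ratio plus 0.05) against the change in the first WT series for 497 genes, 1 library at each time in each series. The red points, higher in the first series, lie near 0 in WT Rep. 2 (median 0.19) and higher in dZF1 (median 0.40) and dZF2 (median 0.58), and the ringed genes SP5, EOMES, NODAL and MIXL1 are at or above 0 in all panels.

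The clones were set beside both WT series for the same genes. In the deposited table their values are ratios to the highest RPKM of WT Rep. 2. SP5 transcripts were at ratios of 0.01 and 0.23 at 0 and 12 h in dZF1 and of 0 and 0.62 in dZF2. NODAL was at 0.05 and 0.29 in dZF1 and at 0.05 and 0.74 in dZF2, EOMES at 0.01 and 0.18 and at 0 and 0.30. Of the 68 genes higher in the first series, 50 were higher in dZF1 and 57 in dZF2 at 12 h, with medians of 0.40 and 0.58. That is 73.5% and 83.8% of the 68, beside 57.1% and 54.7% of all 497 genes, whose medians were 0.06 and 0.05. Across the 497 genes the Spearman correlation with the first series was 0.35 for dZF1 and 0.53 for dZF2, and the Pearson correlation 0.29 and 0.45. The clones lack SP5 zinc fingers and the first series does not, and each has 1 library a time, so genotype, culture and library cannot be told apart in these differences, and their part in them was not tested. The clones did not move alike for every gene, and T was at 0.46 and 0 in dZF1 but at 0 and 0.24 in dZF2.

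Some genes went opposite ways in the 2 WT series. GPR75-ASB3, a joined entry, was at 0 and 4.6 RPKM in the first series and at fractions of 0.92 and 0 in WT Rep. 2. ANKHD1-EIF4EBP3, another, was at 5.7 and 0 RPKM and at 0.19 and 1.00. FOXB1 was at 0.7 and 6.8 RPKM and at 1.00 and 0.41. The BMP targets ID2 (0.64 to 0.31) and ID4 (0.98 to 0.70) were lower in WT Rep. 2 although they were higher in the first series.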

How the data were processed

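RNA-Seq libraries of H1 cells (0, 12, 24 and 48 h of 1 nM Wnt3a, n = 1 per time and series) were grouped by the submitters' labels. Per the labels, total RNA was depleted of ribosomal RNA and made into strand-marked libraries. The authors aligned reads to hg19 with TopHat and computed RPKM with Cuffdiff, and they deposited RPKM at 1 decimal. The submitters' processing notes name Bowtie 0.12.7, SAMtools 0.1.12a and MACS 1.4.2, and the gene annotation is not given in the sources used here. For 497 genes the authors deposited a fraction of the gene's maximum for WT Rep. 2 and, for dZF1 and dZF2, a ratio to the same WT maximum, at 2 decimals. For peaks the deposited values are a count of tags, a score from the peak caller's p-value, a fold ratio over background and a false discovery rate in percent. No reads are counted in the RNA tables, so the depth is unknown.

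Changes used a pseudocount of 1 RPKM or of 0.05 on a fraction. Start sites came from GENCODE release 44 mapped to GRCh37 (10649 of 10975 symbols matched). The members, the 19 gene lists and the rule for named genes were chosen with earlier results of these data known. That rule takes the 15 largest rises and falls, list members past 2-fold, defining members of each list, the 5 genes farthest apart between the WT series in each direction, and genes at 0 in 1 library and at 10 RPKM or more in the other. Genes named outside it were chosen after their values were seen. Alternatives were other pseudocounts, level filters, scalings, thresholds, peak distances and words. Steps ran in Python 3.11.15 with numpy 2.4.6, pandas 2.3.3 and matplotlib 3.10.9. Only the count of genes past 2-fold was tested on simulated data, with large planted changes and no listed 0. The peak, promoter and WT Rep. 2 steps were not simulated. Columns of per-sample values without a label were 0. The deposited tables that repeat the first series as fractions were not used. A member of the NODAL list is not reported here and is left out of that list's counts.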

Additional observations from a re-analysis of the deposited data

Results flagged for a closer look

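5 genes moved at least 2-fold in opposite directions at 12 h in the first WT series and in WT Rep. 2, on the log2 scale of the fraction plus 0.05. With 1 library at each time, the difference was not tested. WT Rep. 2 minus the first series came to -8.67 for GPR75-ASB3 (4.39 and -4.28), to -3.78 for FOXB1 (2.58 and -1.19) and to -2.68 for MYCT1 (1.68 and -1.0). It came to 6.38 for ANKHD1-EIF4EBP3 (-4.26 and 2.13) and to 2.85 for CXCR7 (-1.82 and 1.02). GPR75-ASB3 and ANKHD1-EIF4EBP3 are joined entries that overlap other listed entries, and the part of that overlap in their changes was not tested.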

How the results depend on the processing

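The counts of genes past 2-fold moved with the pseudocount, the level filter and the threshold. Higher and lower genes numbered 134 and 81 as reported, 205 and 148 with a pseudocount of 0.1 RPKM, 34 and 8 with 5 RPKM, 60 and 30 among genes with a mean of at least 5 RPKM, 442 and 413 at 1.5-fold and 39 and 15 at 3-fold. Higher genes were 62.3% of those past 2-fold as reported and 81.0% with a pseudocount of 5 RPKM, while centring on the median of all genes and upper quartile scaling kept both counts within 1.5 times. Of 93 list medians recomputed, 6 moved by more than 0.16. The mesendoderm median was 0.81 and 0.13 with pseudocounts of 0.1 and 5 RPKM and 0.15 with the level filter, the single trophectoderm marker TFAP2C was at 1.13 and 0.44 with these pseudocounts, and the fibroblast median was 0.16 with the filter. The share of promoters with a word was 12.5% for higher and 3.64% for lower genes with CTTTGAT and CTTTGAA only. For WT Rep. 2 the alternatives were run on genes past 2-fold in the first series on the fraction scale. Of the 66 higher genes in this set, 59.1% (39) were higher in WT Rep. 2, with 54.3% to 65.7% over the alternatives. The 68 genes described above were set on RPKM plus 1, and 60.3% of them were higher. Of the 11 genes at least 2-fold lower on the fraction scale, 18.2% (2) were lower in WT Rep. 2, and up to 42.9% under the alternatives. Of the 12 lower genes set on RPKM plus 1, 33.3% (4) were lower. These are too few genes to call stable. The share with an SP5 peak was 4.92% to 6.56% for higher and 2.86% to 5.71% for lower genes. Of 285 values of 64 named genes, 97 moved by more than 0.16. A reversal was counted only for genes past 2-fold, and 0 were found. That count carries no information, because a pseudocount or level filter cannot change a sign and both scalings shifted values very little. No paired analysis was possible because the first series has 1 library at each time and WT Rep. 2 was scaled separately, in a table of its own. Read depth is unknown, values are rounded, and a listed 0 may be a failed estimate, so low genes limit all counts.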
